A study of Mus musculus with 2 samples.

Results

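Dnajc15, Epsti1, Akr1c13, Cap1, Smo and Gm10093 are 6 of the 27933 gene symbols counted in single thymocytes, the T cell precursors that mature in the thymus. They were picked because each had differed between a wild type and a mutant library in the same direction in several stages of thymocyte development. That difference is therefore what chose them and is given as a description. The mutant library came from mouse thymocytes in which both alleles of NMe carry mutated GATA sites 1 and 2. NMe is a distant enhancer of Myc that NOTCH1 binds in T cell precursors. The other library came from thymocytes labelled wild type. Neither strain, age nor number of animals is given in the labels, and no other allele or treatment is named. With 1 library per group there is no test between genotypes. Every comparison is between these libraries, and the 95% intervals given in brackets reflect counting error alone.

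The 6 genes belong to unrelated processes. Dnajc15 (also called MCJ) is a J-domain protein of the inner mitochondrial membrane that restrains respiratory complex I and can stimulate the motor that pulls proteins into the matrix. Epsti1 is an interferon-inducible gene, and Akr1c13 is a cytosolic member of the aldo-keto reductase family. Cap1 binds actin monomers and cofilin and recycles actin from old filaments. Smo is the membrane protein that passes on the hedgehog signal once Ptch1 no longer holds it back, a pathway active in early thymocytes. Gm10093 is annotated as a processed pseudogene, a copy made from a spliced messenger RNA.

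The filters left 1341 cells of wild type and 1731 of mutant, with a median of 3329 and 2596 unique molecular identifiers (UMIs) per cell, and 1 barcode was shared by the libraries. Cells were placed by summed marker UMIs, and the names below are used in the sense of "-like". There were 45 wild type and 180 mutant CD4-CD8- (DN) cells, by markers such as Il2ra, Hes1 and Notch3. The DN rule did not use Cd4 and allowed up to 3 Cd8 UMIs. Cycling cells numbered 570 and 313, and resting CD4+CD8+ (DP) cells 304 and 460. The 188 and 292 post-selection cells were placed by markers such as Cd69 and Itm2a. Markers such as Ccr7 and Klf2 placed the 139 and 285 mature single-positive (SP) cells. The libraries thus differed in makeup, with cycling cells at 42.5% of the wild type and 18.1% of the mutant cells. Myc itself had 299 wild type and 147 mutant UMIs, a log2 ratio of -0.96 (-1.26 to -0.67), where every log2 ratio is mutant over wild type. Macrophage Lyz2 RNA, read as a measure of free RNA, was found in 0.329% of wild type and 0.501% of mutant DP cells once each cell was thinned to 1500 UMIs. Median depth in DP cells was 2161 and 1824.5 UMIs before thinning. Levels are UMIs per 1000000 UMIs of the cells summed (CPM).

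Dnajc15 and Epsti1 were the members with less RNA in the mutant library. Over all cells Dnajc15 had 1760 UMIs, 265.7 CPM, in the wild type and 434 UMIs, 68.5 CPM, in the mutant library. The level was thus 3.88-fold higher in wild type, a log2 ratio of -1.96 (-2.11 to -1.80). Wild type Dnajc15 stood at 80.7 CPM in DN, 280.1 in cycling, 469.8 in DP, 144.1 in post-selection and 154.4 in SP cells. The wild type order was thus a peak in DP cells above cycling cells, with SP and post-selection cells not separated by their counting error and DN cells lowest.

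In the mutant library Dnajc15 stood at 30.8 CPM in DN, 93.5 in cycling, 69.8 in DP, 52.0 in post-selection and 55.1 in SP cells. The DP peak was not seen there: cycling cells were highest, and the neighbours that followed in the order, DP, SP, post-selection and DN, did not differ beyond counting error. The log2 ratio was -1.39 (-2.41 to -0.36) in DN, -1.58 (-1.80 to -1.37) in cycling, -2.75 (-3.15 to -2.37) in DP, -1.47 (-2.04 to -0.91) in post-selection and -1.49 (-2.01 to -0.97) in SP cells. The interval in DP cells did not overlap those of cycling, post-selection or SP cells. With cells thinned to 1500 UMIs, 46.4% of wild type and 9.52% of mutant DP cells had a Dnajc15 UMI, against 58.6% and 12.4% unthinned. No cell held more than 11.8% of the Dnajc15 UMIs of any of the 5 stages in either library.

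Epsti1 followed the same direction except in the earliest cells. Over all cells it had 728 wild type UMIs (109.9 CPM) and 319 mutant UMIs (50.3 CPM), which gives -1.13 (-1.32 to -0.93) on the log2 scale, or -1.75 with the 5 stages weighted equally. Wild type Epsti1 stood at 33.2 CPM in DN, 81.8 in cycling, 274.7 in DP, 112.7 in post-selection and 170.7 in SP cells. Mutant Epsti1 stood at 46.9 CPM in DN, 16.7 in cycling, 18.0 in DP, 41.1 in post-selection and 77.4 in SP cells. DP cells were thus the highest of the 5 stages in wild type, while in mutant they were level with cycling cells within counting error, the 2 lowest stages.

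The Epsti1 log2 ratio was -3.93 (-4.74 to -3.22) in DP cells, from 200 wild type and 17 mutant UMIs, a 15.3-fold higher level in wild type. It was -2.30 (-2.82 to -1.81) in cycling, -1.45 (-2.10 to -0.83) in post-selection and -1.14 (-1.60 to -0.68) in SP cells. With each cell thinned to 1500 UMIs it was -4.99 in DP, -3.40 in cycling and -2.19 in post-selection cells, but -0.72 (-1.48 to 0.04) in SP cells, an interval that includes 0. DN cells did not share the difference: 7 wild type and 29 mutant UMIs gave 0.50 (-0.72 to 1.93), an interval that includes 0. After thinning, 33.2% of wild type DP cells (28.0 to 38.8) and 1.5% of mutant DP cells (0.554 to 3.24) had an Epsti1 UMI, the latter beside 0.501% with a Lyz2 UMI in the same cells. The unthinned shares were 41.4% and 3.48%.

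Single cells and SP subsets mattered more for Epsti1 than for Dnajc15. In mutant cycling cells 1 cell held 9 of the 38 Epsti1 UMIs (23.7%), and without the top cell of each library the ratio there was -2.65. Among SP cells with at least 2 UMIs of Cd8a and Cd8b1 Epsti1 had 64 wild type and 29 mutant UMIs, a log2 ratio of -1.74 (-2.43 to -1.09). Among SP cells with fewer, it had 20 and 51 UMIs at 73.5 and 72.8 CPM, a ratio of -0.01 (-0.78 to 0.81). These intervals did not overlap, so the SP difference in Epsti1 lay in the cells with Cd8 RNA. Dnajc15 had -1.35 (-2.04 to -0.68) and -1.25 (-2.11 to -0.39) in the same subsets.

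Cap1 had more RNA in the mutant library in each of the 5 stages. It had 276 wild type UMIs (41.7 CPM) and 916 mutant UMIs (144.5 CPM) over all cells, with a log2 ratio of 1.79 (1.60 to 1.99). Wild type Cap1 lay between 28.5 CPM in DN and 57.7 CPM in DP cells, and mutant Cap1 between 126.3 CPM in DN and 177.6 CPM in DP cells. Neighbours in the order of stages did not differ beyond counting error in either library, stages further apart were not compared, and the lowest mutant stage was above the highest wild type stage.

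The Cap1 log2 ratio was 2.15 (0.96 to 3.64) in DN, 1.94 (1.66 to 2.23) in cycling, 1.62 (1.13 to 2.15) in DP, 1.61 (0.95 to 2.33) in post-selection and 1.53 (0.94 to 2.18) in SP cells. Thinned shares of positive cells over all cells were 7.23% (5.90 to 8.75) for wild type against 19.0% (17.2 to 21.0) for mutant, compared with 18.0% and 36.8% unthinned. By stage the thinned shares were 2.22% and 16.9% in DN, 5.09% and 18.0% in cycling and 9.87% and 23.8% in DP cells. They were 6.38% and 16.3% in post-selection and 6.47% and 20.6% in SP cells, with intervals apart in 4 of the 5 stages. Cap1 UMIs were spread over cells about as depth alone would spread them: 241 wild type cells held one where 234.9 would be reached by depth, and 637 mutant cells where 643 would be. The higher mutant level was therefore not carried by a few cells, and the top mutant cell held 0.983% of the UMIs. Within stages the largest share from 1 cell was 16.7% in wild type and 7.69% in mutant, both in DN cells.

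**Figure D1:**
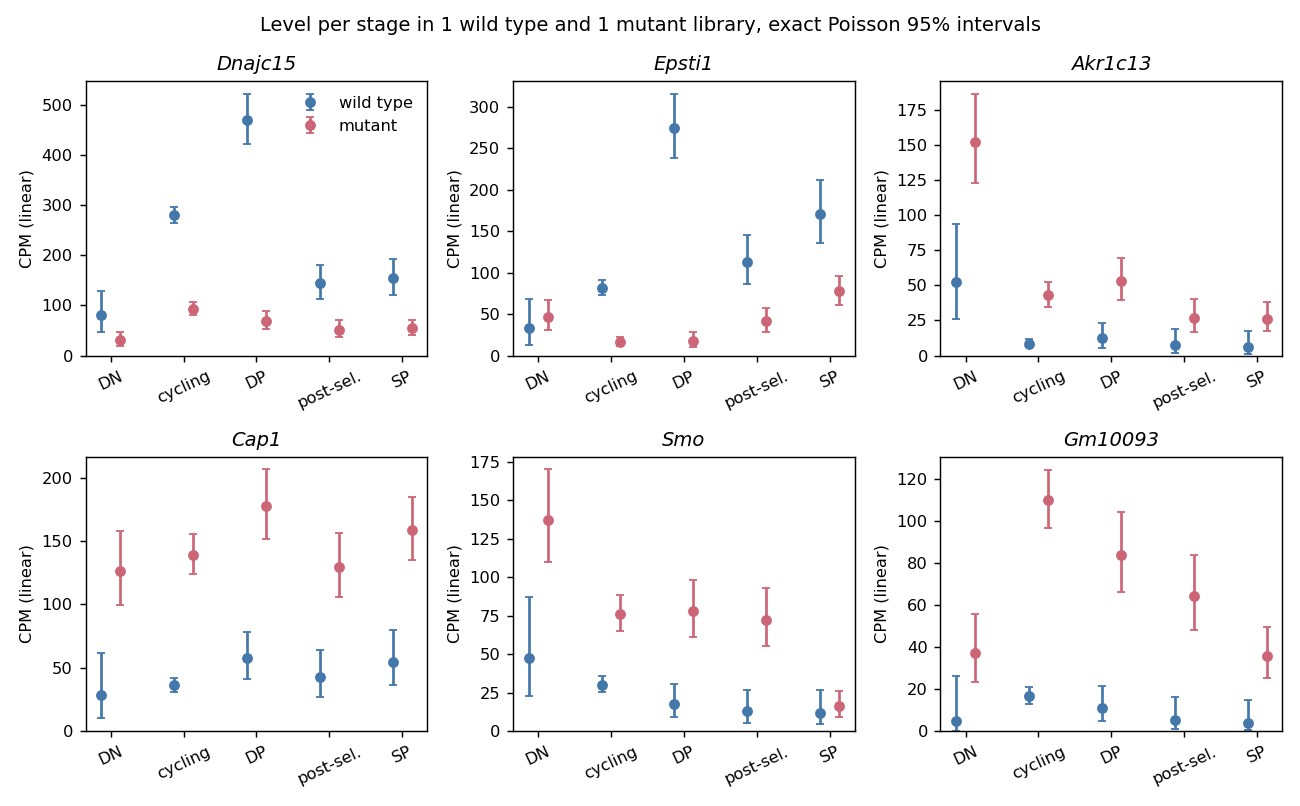
Level of the 6 genes (y axis, UMIs per 1000000 UMIs, linear) in 5 stages (x axis) of the wild type (blue) and mutant (red) library; points are summed values and bars exact Poisson 95% intervals. Dnajc15 and Epsti1 peak in wild type DP cells at 469.8 and 274.7 CPM and lack that peak in mutant, while Cap1 lies between 28.5 and 57.7 CPM in wild type and between 126.3 and 177.6 CPM in mutant.

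Smo was higher in the mutant library beyond counting error in cycling, DP and post-selection cells, and in DN cells only before thinning. It had 172 wild type UMIs (26.0 CPM) and 435 mutant UMIs (68.6 CPM) over all cells, with a log2 ratio of 1.40 (1.14 to 1.67). Wild type Smo stood at 47.5 CPM in DN, 30.4 in cycling, 17.9 in DP, 12.9 in post-selection and 12.2 in SP cells. Mutant Smo stood at 137.6 CPM in DN, 76.3 in cycling, 78.2 in DP, 72.6 in post-selection and 16.4 in SP cells. Wild type neighbours in the order of stages did not differ beyond counting error, and stages further apart were not compared. In mutant, DN cells stood above the next stage beyond counting error. The mutant level then held from cycling to post-selection cells and dropped beyond counting error in SP cells.

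The Smo log2 ratio was 1.53 (0.59 to 2.65) in DN, 1.33 (0.99 to 1.67) in cycling, 2.13 (1.27 to 3.11) in DP and 2.49 (1.36 to 3.86) in post-selection cells. In SP cells it was 0.43 (-0.98 to 2.06), from 6 wild type and 17 mutant UMIs. One wild type SP cell held 3 of those 6 UMIs, and without the top cell of each library the ratio was 1.24. After thinning, 0 of 139 wild type SP cells had a Smo UMI, which allows a share of up to 2.16% by the limit of 3 counts and 2.62% by the Clopper-Pearson interval, and 2.53% of the mutant SP cells did. The unthinned shares were 2.88% and 5.26%. The SP difference was not detectable at this depth. In DN cells the ratio was 0.75 (-0.49 to 2.28) after thinning, and the thinned shares of 11.1% (3.71 to 24.1) for wild type against 18.5% for mutant were not apart, the latter lying inside the wild type interval. In post-selection cells the thinned shares were 1.06% (0.129 to 3.79) and 10.9% (7.45 to 15.2).

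Akr1c13 was highest in DN cells of both libraries and had the higher level in mutant in each of the 5 stages, though not beyond counting error in post-selection and SP cells after thinning. Its 65 wild type UMIs (9.81 CPM) and 320 mutant UMIs (50.5 CPM) over all cells gave a log2 ratio of 2.36 (1.97 to 2.77). Wild type Akr1c13 stood at 52.2 CPM in DN, 8.58 in cycling, 12.4 in DP, 7.39 in post-selection and 6.10 in SP cells. Mutant Akr1c13 stood at 152.2 CPM in DN, 43.0 in cycling, 52.9 in DP, 26.6 in post-selection and 26.1 in SP cells. DN cells stood above the next stage beyond counting error in each library. In wild type this rested on few DN UMIs, many of them from a single cell, and counting error does not cover such clumping.

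The Akr1c13 log2 ratio was 1.54 (0.64 to 2.59) in DN, 2.33 (1.77 to 2.91) in cycling, 2.10 (1.06 to 3.31) in DP, 1.85 (0.29 to 3.85) in post-selection and 2.10 (0.40 to 4.46) in SP cells. After thinning it was 3.40 (1.85 to 5.39) in cycling cells, but 0.86 (-1.20 to 3.41) in post-selection and 1.01 (-0.88 to 3.47) in SP cells, both with intervals that include 0. Wild type counts were low, and 1 DN cell held 5 of the 11 UMIs and 1 post-selection cell 2 of the 4. Without the top cell of each library the ratio was 2.29 in DN and 2.69 in post-selection cells. Thinned shares of positive DN cells were 4.44% (0.543 to 15.1) for wild type against 20.2% (14.6 to 26.9) for mutant, and those of all cells 1.27% and 7.28%. The thinned share of wild type DP cells was 1.97%, inside the wild type DN interval.

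The stage sets of the libraries were not alike in the early DN markers, given here because mutant Akr1c13 and mutant Smo were highest in DN cells. The early DN markers summed to 1980 CPM in wild type DN cells against 3822 CPM in mutant ones. In cycling cells they summed to 85.3 CPM for wild type against 347.1 CPM for mutant, and in DP cells to 61.8 against 228.4 CPM. In post-selection cells they summed to 68.3 CPM for wild type against 114.9 CPM for mutant. In SP cells they summed to 50.8 against 90.9 CPM. These markers were thus higher in mutant in each of these stages, including SP cells, where the Smo difference was not detectable. Their part in the result was not tested.

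Gm10093 had a difference over all cells whose interval overlaps that of Akr1c13, at 2.49 (2.16 to 2.84) on the log2 scale, from 88 wild type UMIs (13.3 CPM) and 474 mutant UMIs (74.8 CPM). Wild type Gm10093 had 1 UMI in DN, 72 in cycling, 8 in DP, 3 in post-selection and 2 in SP cells. Mutant Gm10093 had 23, 250, 79, 53 and 37 UMIs in the same stages, at 37.2, 109.7, 83.5, 64.1 and 35.8 CPM. In mutant it was highest in cycling cells and about equal in DN and SP cells.

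The Gm10093 log2 ratio was 2.72 (2.33 to 3.11) in cycling and 2.93 (1.88 to 4.19) in DP cells. It was 2.97 (0.35 to 8.34) in DN, 3.53 (1.91 to 5.86) in post-selection and 3.14 (1.18 to 6.24) in SP cells, where wild type counts of 1 to 3 left wide intervals. Thinned shares over all cells were 1.57% (0.972 to 2.38) for wild type against 9.55% (8.17 to 11.1) for mutant. In SP cells, without the top cell of each library, the ratio was 4.06 from 1 remaining wild type UMI, and with thinning it was 1.91 (-0.19 to 5.08), an interval that includes 0.

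**Figure D2:**
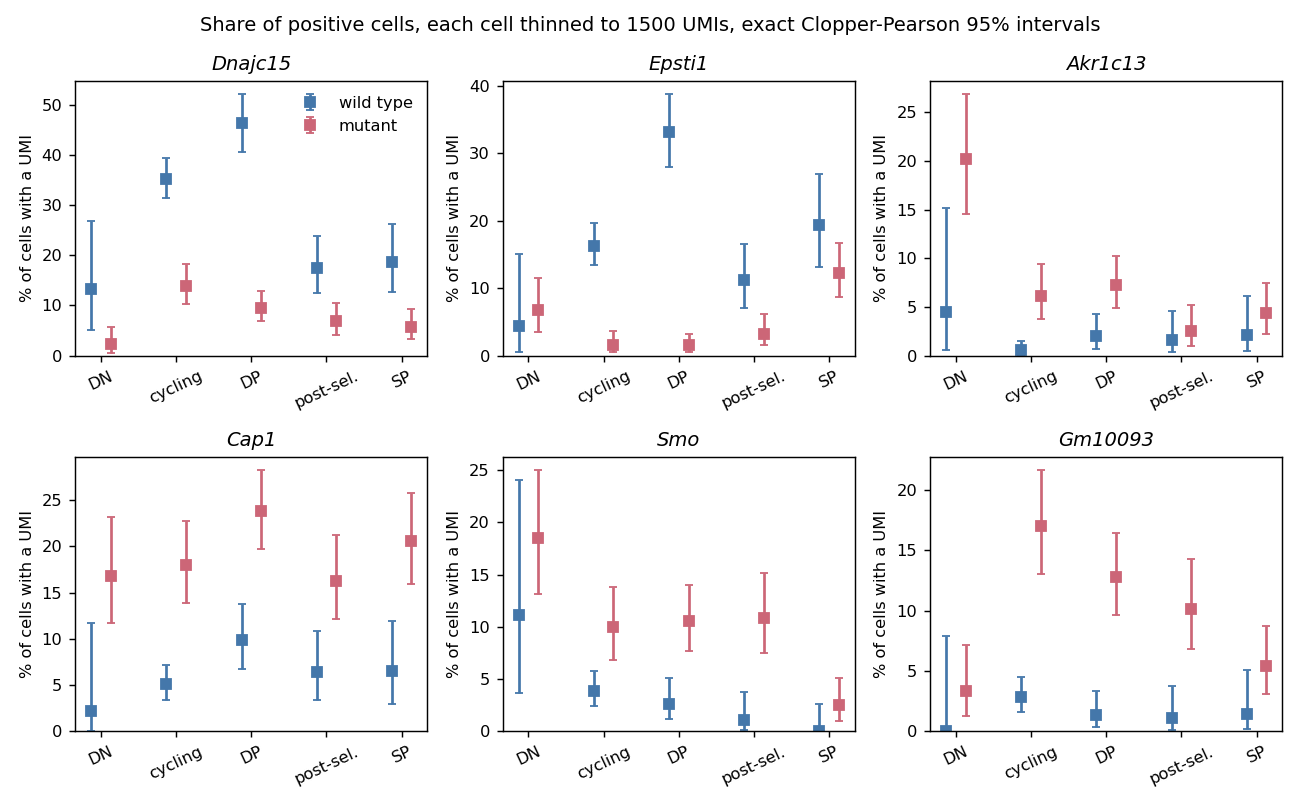
Share of cells with at least 1 UMI of each gene (y axis, percent) in 5 stages (x axis), each cell thinned to 1500 UMIs, for wild type (blue) and mutant (red); bars are exact Clopper-Pearson 95% intervals. Shares follow the levels: Dnajc15 in DP cells is at 46.4% and 9.52%, and Gm10093 over the stages stays at or under 2.81% in wild type.

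The Gm10093 counts have to be read beside Hdac1, a histone deacetylase of transcriptional repressor complexes, whose messenger RNA it copies. The Gm10093 transcript (GRCm38 chr17:78491582-78493025, + strand) aligned over all 1444 bases to bases 85 to 1528 of the Hdac1 transcript with 9 mismatches, 99.4% identity. That stretch is the Hdac1 coding sequence, which runs from base 85 to 1530 of 2038, so the copy lacks the last part of the Hdac1 messenger RNA, where 3' libraries mostly read. Hdac1 itself lies at chr4:129516104-129542713 (- strand). The 100 bases richest in differences are shown because they hold 6 of the 9 bases by which a read could be told apart, printed in capitals, from the GENCODE vM21 transcripts:
Gm10093: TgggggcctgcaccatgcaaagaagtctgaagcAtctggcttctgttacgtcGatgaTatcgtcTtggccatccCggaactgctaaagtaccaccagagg
Hdac1: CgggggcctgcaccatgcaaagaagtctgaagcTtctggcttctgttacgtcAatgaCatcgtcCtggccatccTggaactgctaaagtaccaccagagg

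Of the 50-base words in the last 400 bases of Gm10093, 85.8% also occurred in Hdac1 transcripts, so how the authors' counting assigned such reads bears on both genes and was not tested. Hdac1 had 1198 wild type and 1013 mutant UMIs, with a log2 ratio of -0.18 (-0.30 to -0.06) over all cells and 0.04 (-0.12 to 0.19) in cycling cells. Over all cells, where the libraries differ in makeup, and in cycling cells Hdac1 thus did not show the difference of Gm10093. In DN, DP, post-selection and SP cells the Hdac1 level was also higher in mutant, though by less than that of Gm10093. The counting error of Hdac1 alone in those stages is not given. Of the UMIs of both genes together, Gm10093 made up 6.84% (5.52 to 8.36) for wild type against 31.9% (29.5 to 34.3) for mutant. That share lay between 5.13% and 7.69% in the wild type stages and between 27.4% and 33.1% in the mutant stages. The 2 genes summed had a log2 ratio of 0.27 (0.16 to 0.38) over all cells, 0.50 (0.36 to 0.63) in cycling and 0.73 (0.40 to 1.07) in DP cells. The sum gave 1.14 (0.29 to 2.11) in DN, 0.93 (0.48 to 1.40) in post-selection and 0.68 (0.15 to 1.23) in SP cells.

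Akr1c13 (chr13:4191150-4205596, + strand) lies among relatives that differed in the same direction. Akr1c12, which lies 62.58 kb from it, had 4 wild type and 70 mutant UMIs, with a log2 ratio of 4.19 (2.77 to 6.11). Akr1c18, which inactivates progesterone, had 1 and 72 UMIs, 6.23 (3.71 to 11.56), 40.496 kb to the other side. The genes differed in stage: 51 of the 72 mutant Akr1c18 UMIs fell in post-selection cells, while 94 of the 320 Akr1c13 and 20 of the 70 Akr1c12 UMIs fell in DN cells. Akr1c14 of the same cluster had 0 UMIs.

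The next genes outward were at 0.01 (-0.41 to 0.42) for Net1 and 0.40 (-0.24 to 1.05) for Akr1e1, both with intervals that include 0. The Akr1c13 and Akr1c12 transcripts were 94.5% identical, and 14.2% of the words at the end of Akr1c13 were shared with Akr1c12, so some reads may be split between them. Their promoters were 92.5% identical over the 250 bases before the start. The first 200 bases of each, from RefSeq on GRCm38.p6, are shown because the genes moved together. Akr1c13 covers chr13:4190937-4191136 on the + strand, Akr1c12 covers chr13:4279450-4279649 on the - strand, and capitals mark bases that differ or have no partner:
Akr1c13: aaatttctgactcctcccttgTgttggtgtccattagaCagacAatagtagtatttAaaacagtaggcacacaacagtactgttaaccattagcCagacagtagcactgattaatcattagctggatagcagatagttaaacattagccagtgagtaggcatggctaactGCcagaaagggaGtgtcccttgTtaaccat
Akr1c12: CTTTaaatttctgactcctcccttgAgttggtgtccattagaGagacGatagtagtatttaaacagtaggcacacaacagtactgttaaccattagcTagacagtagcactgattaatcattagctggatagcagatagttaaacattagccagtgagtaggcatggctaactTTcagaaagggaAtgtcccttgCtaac

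Dnajc15 (chr14:77820681-77875125, - strand) and Epsti1 (chr14:77904239-78002657, + strand), the members with less RNA in mutant, are neighbours that point away from each other, with 29.114 kb between their starts. Beyond them the nearest 3 measured genes on each side were not past 2-fold in either direction with 5 CPM added. A gene under 5 CPM in wild type could not have come out 2-fold lower on that scale. That applied to Ccdc122, Serp2, Tnfsf11 and Vwa8, at 2.72, 3.17, 3.62 and 2.42 CPM in wild type. Ccdc122 and Serp2 lie 708.4 and 1263.8 kb from Dnajc15. Ccdc122 had 18 and 14 UMIs, -0.30 (-1.42 to 0.79), and Serp2 21 and 15, -0.42 (-1.48 to 0.60). Tsc22d1, the third on that side, had 135 and 208 UMIs, 0.69 (0.37 to 1.01). On the other side Tnfsf11, the ligand RANKL, had 24 and 58 UMIs, 1.34 (0.63 to 2.09). Akap11 had 0.13 (-0.21 to 0.47) and Vwa8 had 1.02 (0.10 to 1.99). Ends of both transcripts shared no 50-base word with another gene.

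Smo (chr6:29735503-29761365, + strand) also had a neighbour of like direction. Ahcyl2 starts 6.646 kb past it on the same strand and had 212 wild type and 443 mutant UMIs. Its log2 ratios were 1.13 (0.89 to 1.37) over all cells, 0.66 in cycling and 0.57 in SP cells. Those in DN, DP and post-selection cells are not given here, so no match with Smo by stage is read. Tnpo3 on the other side was at 0.03 (-0.20 to 0.25). Cap1 (chr4:122859047-122886056, - strand) shares exon bases at its end with Ppt1 on the opposite strand. Of the 50-base words in the last 400 bases of Cap1, 22.8% also occurred in Ppt1 on the opposite strand. Ppt1 had 792 and 1239 UMIs, 0.71 (0.58 to 0.84), and in post-selection and SP cells 0.13 and -0.19, where Cap1 was at 1.61 and 1.53. The Ppt1 ratios in DN, cycling and DP cells are not given here, so nothing is read from these about likeness by stage. Gm10093 lay between Fez2 at 0.02 and Strn at 0.02, and Crim1 beyond Fez2 had 9 and 40 UMIs, 2.22 (1.15 to 3.44). None of the 6 genes lies on chromosome 15, which holds Myc.

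**Figure D3:**
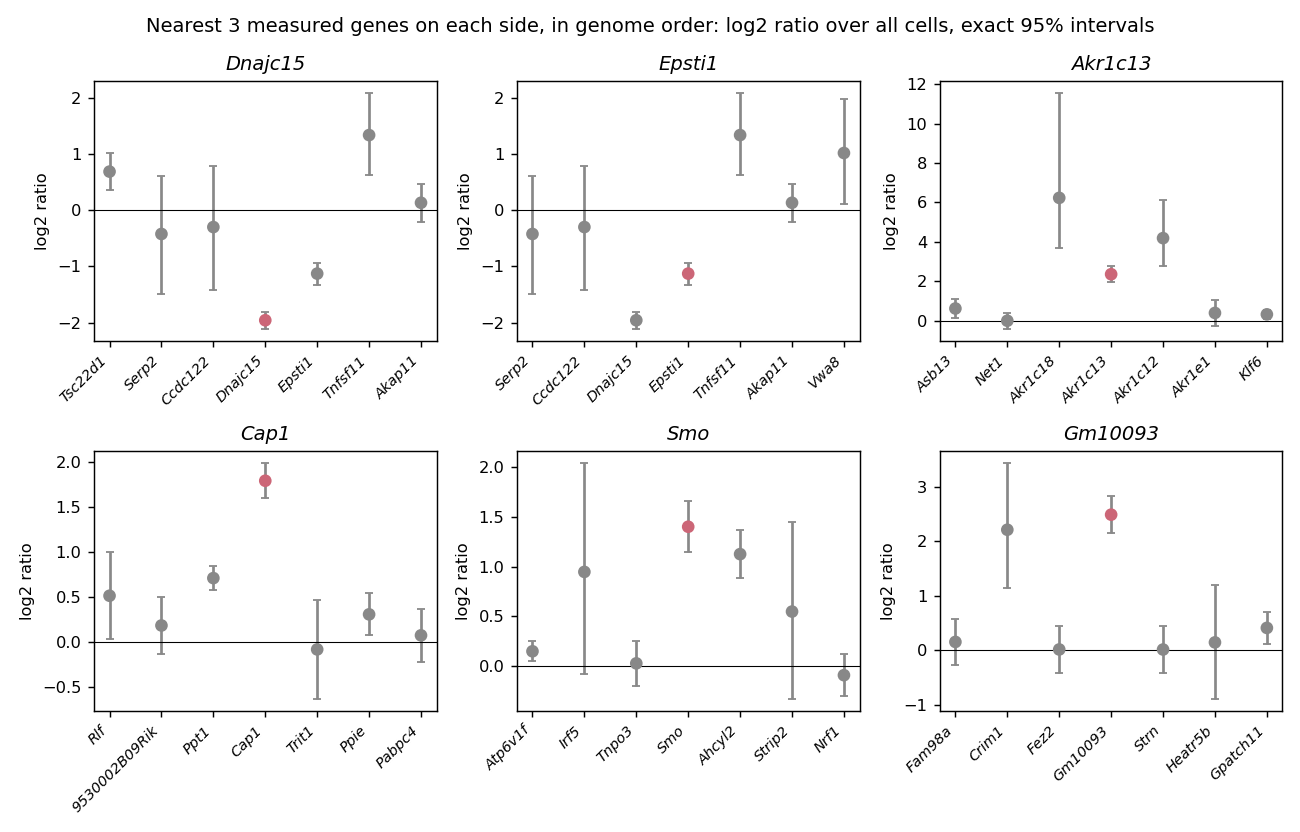
Log2 ratio of mutant over wild type over all cells (y axis) for each gene (red) and the nearest 3 measured genes on each side in genome order (x axis, spacing not to scale); bars are exact 95% intervals and the y axes differ. Dnajc15 and Epsti1 are low side by side, and Akr1c18 and Akr1c12 flank Akr1c13 at 6.23 and 4.19.

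The promoters of 5 of the 6 genes were in the RefSeq table and were searched on both strands, overlaps allowed, for 4 motifs: GATAA of GATA factors, CACGTG of MYC and MAX, the interferon-stimulated response element and the NRF2 motif TGACNNNGC. These occurred in 22.6%, 6.02%, 2.98% and 10.2% of 32851 promoters of 250 bases. Only Dnajc15 held a match, 1 GATAA on the opposite strand, shown in capitals within 30 bases at chr14:77875039-77875068 (- strand, GRCm38.p6), a stretch that GENCODE counts as transcribed:
Dnajc15: gacagggtcagtTTATCggagatggaatga

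The share of all genes with such differences gives the background. With 5 CPM added to both sides and at least 20 UMIs, 4 of the 6 genes were more than 2-fold higher in mutant in DN, cycling, DP and post-selection cells and 3 in SP cells. Of all genes tested in these stages, 10.5%, 1.56%, 2.65%, 2.14% and 2.05% were. On the lower side were 1 of the 6 genes in DN cells and 2 in each later stage, against 1.18%, 0.442%, 1.04%, 0.686% and 0.744% of all genes. With at least 20 UMIs in every stage, 4442 genes could be compared across them. Of these, 0.135% were more than 2-fold higher in mutant in all 5 stages and 0.0225% more than 2-fold lower, against 1.55% and 0.364% of 10725 genes over all cells. Differences of any size in 1 direction were seen in 17.7% of genes on the higher and 3.98% on the lower side, the first with 4 of the 6 genes and the second with Dnajc15. The 7 genes were Ctse, Gm10093, Cap1, Slc15a2, Akr1c13 and Fam3c on the higher and Dnajc15 on the lower side, so 4 of the 6 genes were among them. Epsti1 failed in DN cells and Smo in SP cells, at 0.44 and 0.32 on this scale, so the description "in every stage" did not hold for these 2. Since the genes were chosen on this contrast, nothing is read from these counts.

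The 3 genes outside the choice were Ctse, Slc15a2 and Fam3c. Ctse, the aspartic protease cathepsin E, had 45 wild type and 479 mutant UMIs, 3.48 (3.03 to 3.95). Slc15a2, a peptide transporter, had 1 and 151 UMIs, and 0 in wild type outside cycling cells among the 5 stages. Fam3c, a secreted protein, had 170 and 497 UMIs, 1.61 (1.36 to 1.87). They lie on chromosomes 1, 16 and 6, so the 7 genes span 7 chromosomes, with Fam3c on that of Smo.

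**Figure D4:**
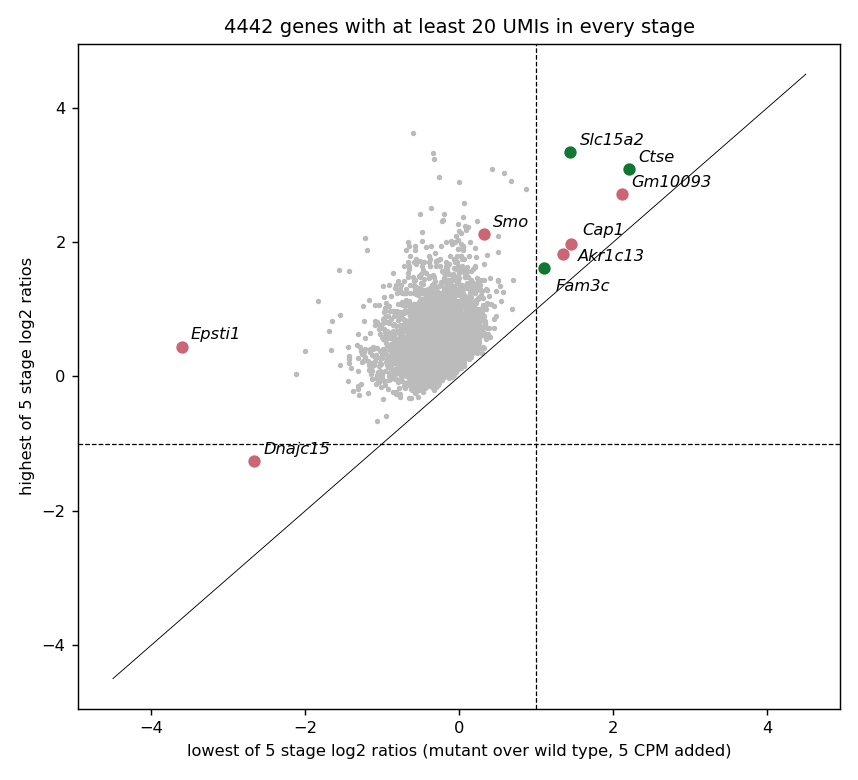
Lowest (x axis) and highest (y axis) of the 5 stage log2 ratios, mutant over wild type with 5 CPM added, for 4442 genes (grey); red marks the 6 genes, green the other 3 past the limits, and dashed lines mark 2-fold. Dnajc15 is alone below the horizontal line, Epsti1 is far to the left but above it, and Smo is left of the vertical line.

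Over all cells, where the libraries differ in makeup, most other genes of each list were not past 2-fold. Of 16 other measured genes of the mitochondrial import motor and channels, 0 were past 2-fold and the median log2 ratio with 5 CPM added was 0.00, against 0.09 over all genes. Dnajc19, the closest relative of Dnajc15 in that motor, had 897 and 799 UMIs, -0.10 (-0.24 to 0.04). Tomm20, an import receptor, had 3222 and 2741 UMIs, -0.17 (-0.24 to -0.10).

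Over all cells Epsti1 was lower in mutant while the rest of its list was higher. All 31 other measured interferon-inducible genes were higher in mutant over all cells, with a median of 0.66, and 5 of them were past 2-fold. Of all genes over all cells, 1.55% were more than 2-fold higher, and the median was 0.09. The 5 genes included Usp18 (45 and 169 UMIs), Isg15 (247 and 606), Ifi27l2a (2363 and 5205) and Rtp4 (175 and 367). Within stages the list, Epsti1 included, was less uniform: in DN cells 11 of 21 measured genes were higher and 10 lower, with a median of 0.03. In DP cells 14 were higher and 9 lower, with a median of 0.22, and in SP cells 19 and 9, with a median of 0.19. In cycling cells 23 were higher and 2 lower, with a median of 0.64, and in post-selection cells 18 and 3, with a median of 0.62. The median over all genes was 0.25 in DN, 0.13 in cycling, 0.12 in DP and 0.06 in both post-selection and SP cells. The list median thus lay under that of all genes in DN cells. With median-of-ratios scaling, which moved the median gene by 0.125, all 31 were still higher, and 3 were past 2-fold. With 1 CPM added in place of 5, 8 were.

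Of 13 other measured hedgehog pathway genes 0 were past 2-fold over all cells, with a median of 0.05. In DN cells 8 of 8 measured genes of the list, Smo included, were higher in mutant, with a median of 0.60 against 0.25 over all genes. Of these 8 genes 2 were more than 2-fold higher, against 10.5% of all genes in DN cells. Ptch1, receptor and target of the pathway, had 109 wild type and 81 mutant UMIs, -0.36 (-0.80 to 0.06). Gli1, the usual target gene, had 0 UMIs in both libraries.

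Among 24 other actin turnover genes 0 were past 2-fold, 21 were higher in mutant and the median was 0.24, against 0.09 over all genes. Of the 24, 19 were higher with median-of-ratios scaling. More than 2-fold higher were 2 of 20 measured genes of the list in DN and 2 of 23 in cycling cells, Cap1 and 1 other in each. Of all genes, 10.5% and 1.56% were more than 2-fold higher in these stages, so the DN count was near the background. Tmsb4x, which holds actin monomers, had 0.93 (0.90 to 0.95), and Cap2, the relative of Cap1, had 5 and 14 UMIs, 1.55 (-0.01 to 3.38). Of 7 other measured aldo-keto reductases, Akr1c12 and Akr1c18 were past 2-fold. The abundant Akr1a1 and Akr1b3 were at 0.08 and 0.04. Of 23 genes of the class I histone deacetylase complexes, 0 were past 2-fold.

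**Figure D5:**
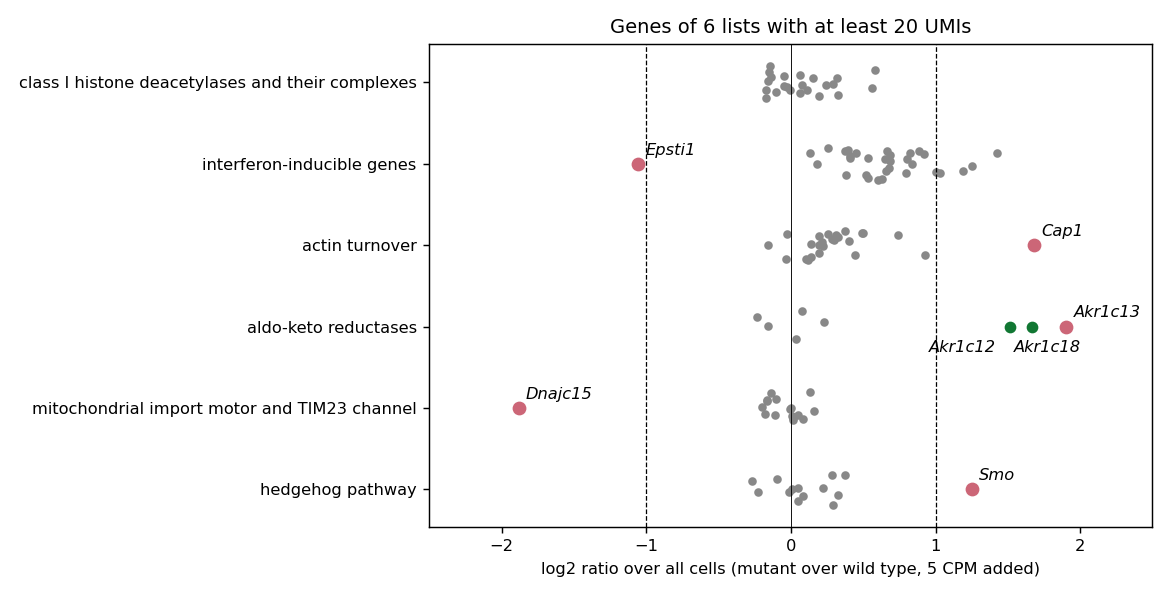
Log2 ratio over all cells, mutant over wild type with 5 CPM added (x axis), of the genes with at least 20 UMIs in 6 lists (rows; vertical scatter within a row has no meaning); red marks the 6 chosen genes where a list holds them, green their relatives Akr1c12 and Akr1c18, dashed lines 2-fold. Dnajc15, Epsti1, Cap1 and Smo stand apart from the other genes of their rows, and Epsti1 is the only interferon-inducible gene below 0.

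The direction was the same at each depth per cell. Cells of both libraries were divided into 4 groups of equal number by their UMIs, and each of the 6 genes kept its direction in all 4. The log2 ratio ran from -3.19 in the shallowest to -1.56 in the deepest cells for Dnajc15 and from -2.39 to -0.67 for Epsti1. Depth went with stage, with wild type and mutant medians of 2161 and 1824.5 UMIs in DP and 6139.5 and 6418 in cycling cells. Depth and stage therefore cannot be told apart in these runs. The ratio lay between 1.35 and 2.04 for Cap1, 1.19 and 2.21 for Smo, 2.06 and 3.90 for Akr1c13 and 2.49 and 3.46 for Gm10093.

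By Pearson's r of log2(CPM + 5) over 10 values, the 5 stages of each library, among 4442 genes, the gene most like Cap1 was Ctse (0.980), followed by Armc7 (0.937) and Slc15a2 (0.902). Fam169b was most like Akr1c13 (0.968), with 393 and 914 UMIs. The genes most like Dnajc15, Epsti1, Smo and Gm10093 were Mrpl30 (0.867), Hscb (0.838), Elf2 (0.924) and Ctu2 (0.944), none of them past 2-fold over all cells. The 10 points share libraries and depth, so these values are descriptions only.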

How the data were processed

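Per the labels' protocols, 5000 thymocytes of each genotype went onto a 10x Chromium with 3' v2 reagents. The authors deposited 1 table of whole-number UMI counts per library, barcodes by gene symbols. Per the submitters' processing notes, Cell Ranger and mm10 were used, with no version stated. There were 1346 wild type barcodes with 6638880 UMIs and 1737 mutant barcodes with 6364506 UMIs, the lowest with 1781 and 1416.

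Barcodes with at least 400 genes and at most 10% mitochondrial UMIs were kept. No doublet caller was run, and an alternative left out the top 5% of cells by UMIs. Cells were placed by summed marker UMIs: at least 5 for DP, 3 for post-selection, SP and DN (DN with at most 3 Cd8 UMIs), and 10 for cycling, later rules overruling earlier ones. Cells with at least 5 UMIs of B cell, macrophage or innate-like markers or 10 of class II genes were set apart. In all, 70 wild type and 128 mutant cells were left unplaced. Intervals are exact Poisson (levels), exact conditional (ratios) and Clopper-Pearson (shares). Before thinning to 1500 UMIs, 0 wild type and 97 mutant cells under that depth were left out. A count of 0 is read with a limit of 3 counts.

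Named besides the members were list genes past 2-fold or most abundant, close relatives, the nearest 3 measured genes on each side, genes past 2-fold in every stage and the 3 most like each member. The members and lists were chosen with earlier results of these data known. Positions came from GENCODE vM21, which matched 26646 of 27933 symbols. The ratio intervals were run on simulated Poisson counts, the model they assume. That run held no UMIs clumped in single cells and no variation between libraries, so it cannot show how the intervals hold under either. Python 3, numpy, scipy, pandas and Biopython were used.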

Additional observations from a re-analysis of the deposited data

Results flagged for a closer look

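Epsti1 in the cells with B cell, antigen-presenting or macrophage genes went the other way from cycling to SP cells. It had 7 UMIs in 14 wild type cells, 79.5 CPM, and 92 UMIs in 56 mutant cells, 383.6 CPM, a log2 ratio of mutant over wild type of 2.27 (1.17 to 3.62). One mutant cell held 25 of the 92 UMIs, and without the top cell of each library the ratio was 2.00. In mutant, 76 of the 92 UMIs came from 5 of the 10 cells placed by class II genes alone, 12 from 11 cells with macrophage markers and 4 from 35 cells with B cell markers. In wild type, 5 of the 7 UMIs came from 6 cells with macrophage markers, 2 from 2 cells placed by class II genes alone and 0 from 6 cells with B cell markers. In cells with macrophage markers the level was 111.2 CPM for wild type against 142.3 CPM for mutant. The difference from the other stages was not tested.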

How the results depend on the processing

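No member changed direction over all cells under any alternative run. Dnajc15 (-1.96) moved to -2.27 both with cells thinned to 1500 UMIs and as a mean over cells. Epsti1 (-1.13) moved to -1.54 with thinning, -1.56 as a mean over cells, -1.33 without the top 5% of cells, -1.59 without B, antigen-presenting, macrophage and innate-like cells, and -1.75 with stages weighted equally. Cap1 (1.79) moved to 1.54 with thinning and Smo (1.40) to 1.68 as a mean over cells. With stages weighted equally Akr1c13 (2.36) moved to 1.80 and Gm10093 (2.49) to 2.97. Thinning and the mean over cells weigh cells alike by construction. Under the stricter marker rule 2 members, Cap1 and Gm10093, were past 2-fold in every stage, of 4 with enough UMIs, and 0 genes were lower. At 1.5-fold 10 genes were higher and 3 lower, and with no filter on low counts 10 and 4. The interferon-inducible genes past 2-fold were 8 with 1 CPM added and 3 with median-of-ratios scaling, which also turned the medians of the hedgehog and histone deacetylase lists to -0.01 and -0.06. Within stages, thinning moved Epsti1 to -3.40 in cycling, -4.99 in DP and -2.19 in post-selection cells and Akr1c13 to 3.40 in cycling cells. The other 82 stage ratios that could be formed under alternatives moved by less than their wide counting error. Among these, thinning took Akr1c13 to 1.01 in SP and 0.86 in post-selection cells, Epsti1 to -0.72 in SP, Gm10093 to 1.91 in SP and Smo to 0.75 in DN cells. Alternatives that left 0 UMIs of a gene in 1 library gave no ratio and are not among them. Examples are Smo in SP cells after thinning and Gm10093 in DN cells without the top cell. Of 120 shares, 67 moved with the depth of thinning. No paired analysis was possible because each group has 1 library.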
